A study of Mus musculus with 6 samples.

Results

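The 4 genes of the mouse MEF2 family, Mef2a, Mef2b, Mef2c and Mef2d, were described in newborn cortical tissue of wildtype and D6/Zbtb20S mice. A probe set, a group of short probes read as 1 value, was taken as a member where its only gene symbol in the platform annotation was one of these 4, which gave 15 of 45037 probe sets, or 4 of 18193 named genes. One more probe set, shared by Mef2b and its neighbour Borcs8, was left out by that rule. The family was chosen with the wildtype against D6/Zbtb20S contrast already known, so its own differences are given as a description and without a test.

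Tissue came from the subiculum and the retrosplenial cortex of C57BL/6 mice at postnatal day 1. One group was wildtype and the other carried the D6/Zbtb20S transgene, and its dissected areas are labelled as transformed towards CA1, a field of the hippocampus. There were 3 arrays a group, each of RNA pooled from 7 animals, and wildtype animals were littermates. Whether the pools drew on different litters is not given in the sources used here, and p-values therefore cover pool-to-pool spread alone, part of which may be technical. Zbtb20 represses transcription in pyramidal neurons of the hippocampus through zinc fingers, and D6 names the regulatory element that drives it in developing cortex and hippocampus. The tissue was a mixture of cells, so fewer cells of a type and less RNA per cell cannot be told apart.

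MEF2 proteins are transcription factors that bind an A- and T-rich DNA site through a shared MADS box and MEF2 domain at their amino end. Class IIa histone deacetylases hold them in a repressing state, and calcium entry, acting through calcineurin and calmodulin-dependent kinases, releases them. Mef2c is the member best known for the development of cortical excitatory neurons, where it marks upper layers and controls synapse number, while Mef2a and Mef2d are expressed more broadly and Mef2b is best known from lymphoid cells.

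The sequences before the starts of Mef2c and Mef2a, the members with the largest differences, and of Mef2d, with little difference, are shown to compare their make-up. RefSeq promoters on GRCm38.p6 were matched by symbol for all 4 members. Mef2c had 3 listed starts and the other members 1 each. Each line gives 100 bases, ending at the base before the start, except that the Mef2a stretch runs on to base 8 of the transcript. Capitals mark a match to the MEF2 consensus, the site the family itself binds.
Mef2a (chr7:67372851-67372950, minus strand): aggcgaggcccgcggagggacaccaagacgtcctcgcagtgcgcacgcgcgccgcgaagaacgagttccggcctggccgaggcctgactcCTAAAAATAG
Mef2c, start 1 (chr13:83503934-83504033, plus strand): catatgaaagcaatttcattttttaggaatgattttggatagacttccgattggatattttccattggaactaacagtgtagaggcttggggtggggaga
Mef2c, start 2 (chr13:83523556-83523655, plus strand): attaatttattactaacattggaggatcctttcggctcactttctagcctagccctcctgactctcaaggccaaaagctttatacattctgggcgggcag
Mef2c, start 3 (chr13:83573507-83573606, plus strand): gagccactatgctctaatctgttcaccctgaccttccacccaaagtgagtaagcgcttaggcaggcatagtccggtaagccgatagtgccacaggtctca
Mef2d (chr3:88142272-88142371, plus strand): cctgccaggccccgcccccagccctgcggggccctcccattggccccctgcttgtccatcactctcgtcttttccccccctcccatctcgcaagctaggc

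Over the whole 300-base windows, from 250 bases before to 50 after a start, G and C made up 35.7%, 47.0% and 48.3% of bases at the Mef2c starts, against 62.3% for Mef2a, 57.0% for Mef2b and 72.0% for Mef2d. The lower quartile, median and upper quartile of all 32851 windows were 45.7%, 52.7% and 61.7%. The Mef2c starts were thus all below the median window and the other members all above it. The MEF2 consensus, a degenerate 10-base motif searched on both strands, was found once in the Mef2a window, as CTAAAAATAG beginning 2 bases before the start, and in no other window of the family. It was present in 3.19% of all windows. These matches describe letters in a window and not binding.

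Mef2c read lower in D6/Zbtb20S tissue on all 5 of its probe sets, by 3.05- to 5.69-fold, with no overlap between the groups. A D6/Zbtb20S signal below wildtype without overlap was found in 11.8% of all 45037 probe sets, and one lower by at least 1 on the log2 scale in 0.619%. As the family was chosen with this contrast known, nothing is read from the Mef2c count against those shares. On the brightest of them, 1424852_at, the log2 signal was 9.85, 9.91 and 9.86 on the wildtype arrays and 7.64, 7.72 and 7.72 on the D6/Zbtb20S arrays. The 2 groups lay 2.13 apart at their nearest arrays, while arrays of one genotype differed by at most 0.07. The means were 9.87 ± 0.03 (SD, n = 3) and 7.69 ± 0.04 (SD, n = 3), a difference of -2.18 and a 4.53-fold lower signal. By this difference Mef2c ranked 16 among 18193 genes ordered from the most lowered upwards.

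The other 4 Mef2c probe sets gave the same order of groups with unequal steps. Probe set 1451507_at read 7.65, 7.85 and 7.72 in wildtype and 5.21, 5.09 and 5.40 in D6/Zbtb20S tissue, a difference of -2.51. Probe set 1421028_a_at read 7.26, 7.11 and 6.89 against 4.996, 5.06 and 5.22, a difference of -1.99. Probe set 1451506_at read 7.63, 7.74 and 7.76 against 5.72, 5.99 and 6.09, a difference of -1.78. In these 3 the highest D6/Zbtb20S array lay 1.54 to 2.25 below the lowest wildtype array.

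The smallest Mef2c step was on 1421027_a_at, at 7.22, 7.63 and 7.80 in wildtype and 5.61, 5.98 and 6.23 in D6/Zbtb20S tissue. Its arrays spread most, with SDs of 0.30 and 0.31 (n = 3 each), and its difference was -1.61. Its nearest arrays were 0.99 apart. Probe sets 1424852_at, 1451506_at and 1451507_at are assigned to 1 sequence entry and are not independent readings of the gene. All 5 stayed above the median of their array on all 6 arrays, so Mef2c signal remained in D6/Zbtb20S tissue.

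**Figure D1:**
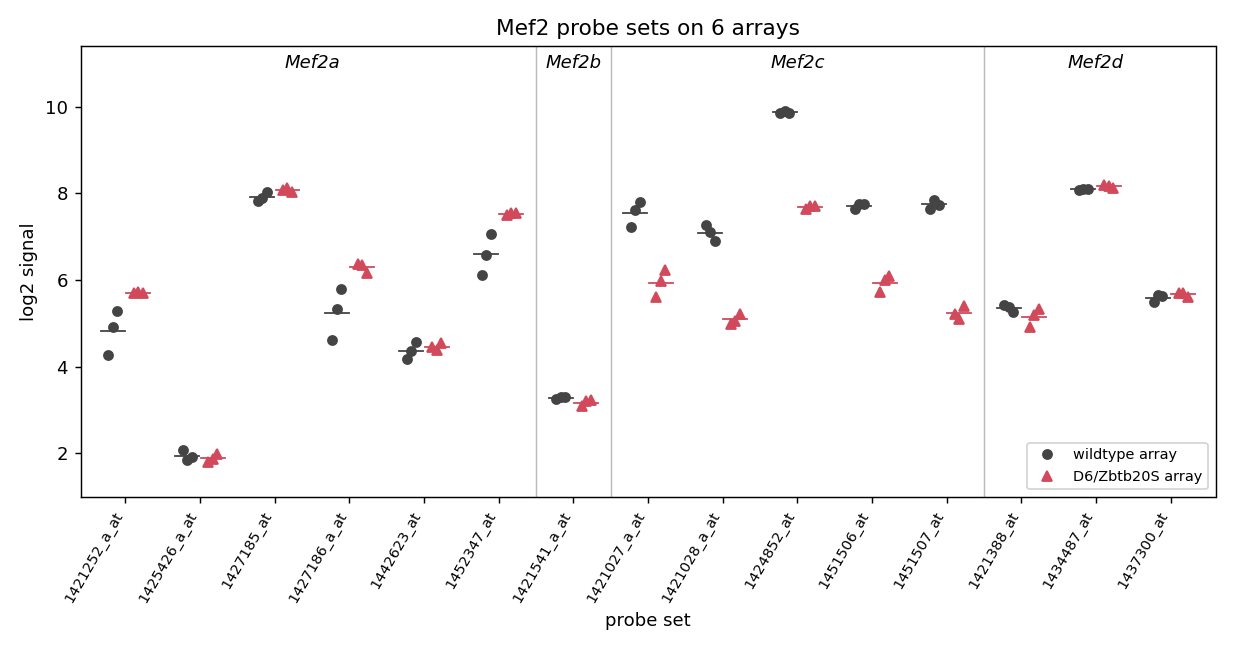
Log2 signal (vertical axis) of the 15 Mef2 probe sets (horizontal axis, grouped by gene) on 3 wildtype arrays (dark circles) and 3 D6/Zbtb20S arrays (red triangles), with short lines at group means. All 5 Mef2c probe sets lie lower in D6/Zbtb20S tissue, 3 of the 6 Mef2a probe sets lie higher with widely spread wildtype arrays, and the Mef2b and Mef2d probe sets differ by at most 0.21.

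Mef2a split by probe set. On 3 of its 6 probe sets D6/Zbtb20S tissue read higher without overlap, by 1.84- to 2.07-fold, on another by 0.17 on the log2 scale with nearly touching arrays, and on the other 2 the groups overlapped. A higher D6/Zbtb20S signal without overlap was found in 11.9% of all probe sets, and nothing is read from the Mef2a count against that share. Probe set 1452347_at read 6.12, 6.58 and 7.06 on the wildtype arrays and 7.49, 7.53 and 7.55 on the D6/Zbtb20S arrays, a difference of 0.94. The wildtype arrays were spread over nearly 1 log2 unit here, and the D6/Zbtb20S arrays were tightly grouped above them. Probe set 1427186_a_at read 4.61, 5.34 and 5.79 against 6.36, 6.34 and 6.17, a difference of 1.05. Probe set 1421252_a_at read 4.28, 4.92 and 5.29 against 5.70, 5.72 and 5.71, a difference of 0.88.

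The brightest Mef2a probe set, 1427185_at, read 7.81, 7.88 and 8.02 in wildtype and 8.07, 8.11 and 8.03 in D6/Zbtb20S tissue, a difference of 0.17 with 0.01 between the nearest arrays. It is assigned to the same sequence entry as 1427186_a_at and 1452347_at, whose differences were 1.05 and 0.94. Probe set 1442623_at read 4.17, 4.37 and 4.56 against 4.44, 4.38 and 4.55, and its groups overlapped. Probe set 1425426_a_at read 2.07, 1.84 and 1.91 against 1.81, 1.88 and 1.98, under the array median throughout, and also overlapped. The mean of the 6 Mef2a probe sets differed by 0.51.

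The spread of the wildtype arrays on those 3 Mef2a probe sets ran with a control of RNA ends. The array's actin control, read as the 3' minus the 5' log2 signal, was 0.53, 0.88 and 1.31 on wildtype arrays 1, 2 and 3, in the same order as their Mef2a signals, and 0.80, 0.91 and 0.83 on the D6/Zbtb20S arrays. The Gapdh control gave -0.33, -0.03 and 0.30 in wildtype and between -0.02 and -0.002 in D6/Zbtb20S tissue. Wildtype replicate 2 had an actin value among those of the D6/Zbtb20S arrays and a Gapdh value below all of theirs. It read 0.94, 0.96 and 0.79 below the D6/Zbtb20S mean on 1452347_at, 1427186_a_at and 1421252_a_at. Wildtype replicate 3, with the highest actin value, read 0.46, 0.50 and 0.42 below it. A step of at least 1 from wildtype replicate 1 up to wildtype replicate 3, as on 1427186_a_at and 1421252_a_at, was seen in 0.708% of all probe sets. On 1452347_at the step was 0.94, under that cut. Nothing is read from the Mef2a steps against that share. These are values of single arrays, and the part of RNA ends in the Mef2a difference was not tested. The wildtype arrays had no shared order on the Mef2c probe sets. They ran as the actin values on 1421027_a_at (over a range of 0.58) and on 1451506_at (0.12), in reverse on 1421028_a_at (0.37), and in neither order on 1424852_at (0.06) and 1451507_at (0.21). The part of RNA ends in the Mef2c difference was not tested.

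**Figure D2:**
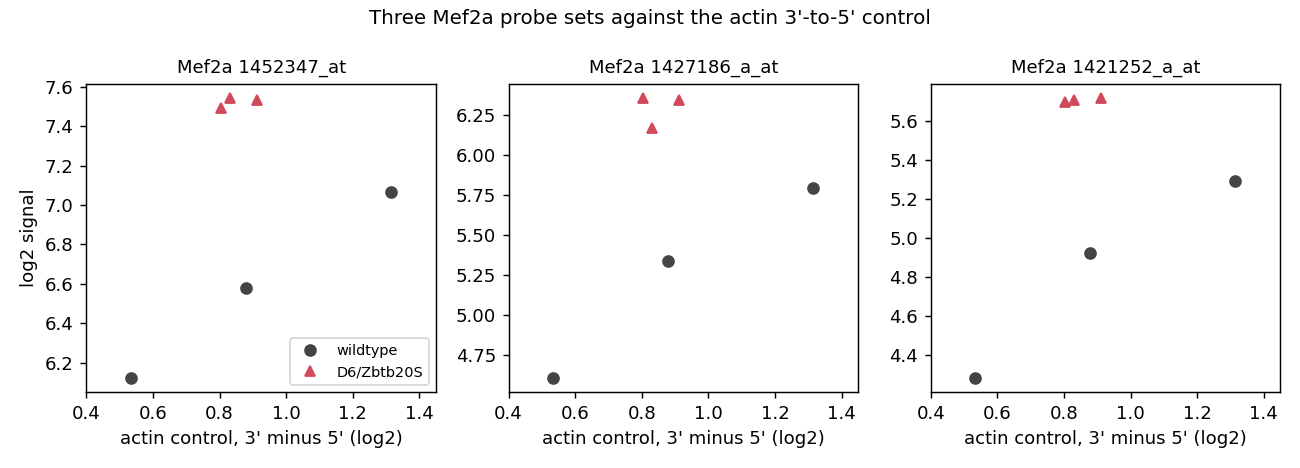
Log2 signal of 3 Mef2a probe sets (vertical axes, scaled separately and not from 0) against the actin control's 3' minus 5' log2 signal (horizontal axes) on 3 wildtype arrays (dark circles) and 3 D6/Zbtb20S arrays (red triangles). Wildtype signals are ordered as the actin values 0.53, 0.88 and 1.31, and the D6/Zbtb20S arrays, between 0.80 and 0.91, lie above all of them.

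Mef2d, which is broadly expressed and known for supporting neuronal survival, differed little. Its brightest probe set, 1434487_at, read 8.07, 8.10 and 8.10 in wildtype and 8.20, 8.16 and 8.13 in D6/Zbtb20S tissue, a difference of 0.07 with no overlap but only 0.02 between the nearest arrays. Probe set 1437300_at read 5.50, 5.65 and 5.63 against 5.70, 5.70 and 5.62, and the groups overlapped. Probe set 1421388_at read 5.43, 5.37 and 5.27 against 4.92, 5.19 and 5.33, a difference of -0.21, and overlapped too. The sign was therefore not shared by the Mef2d probe sets.

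Mef2b was read on a single probe set, 1421541_a_at, which lay under the array median on all 6 arrays. It read 3.25, 3.30 and 3.30 in wildtype and 3.09, 3.20 and 3.23 in D6/Zbtb20S tissue. The difference was -0.11, with 0.02 between the nearest arrays. At so low a signal a change of Mef2b may not be measurable. In all, 6 Mef2 probe sets were lower without overlap (5 of Mef2c and 1 of Mef2b), 5 were higher (4 of Mef2a and 1 of Mef2d) and 4 overlapped. With arrays set to equal medians or quantile normalized, the lower count was 7. The higher count was then 3, since 1427185_at and 1434487_at overlapped.

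Zbtb20 was looked at as a check of the labels. Its probe set 1422064_a_at read 6.44, 5.84 and 7.64 in wildtype and 8.88, 9.10 and 8.94 in D6/Zbtb20S tissue. Of its 9 probe sets only 1422064_a_at and 1437066_at did not overlap between genotypes. Only 1422064_a_at had a limma adjusted p under 0.05 over all probe sets (0.009). The differences on 1437598_at (-0.14), 1439128_at (-0.17), 1439278_at (-0.37) and 1443471_at (-0.06) lay below 0. Wildtype replicate 3 read highest of the wildtype arrays on all 9. Of the 5 Mef2c probe sets it read highest of the wildtype arrays on 2, lowest on 1 and between the others on 2. Without that array the Mef2c difference on 1424852_at was -2.19, and the Mef2a differences on 1452347_at, 1427186_a_at and 1421252_a_at were 1.17, 1.32 and 1.11. Without wildtype replicate 1 those Mef2a differences were smaller, at 0.70, 0.73 and 0.60, and without wildtype replicate 2 they were 0.93, 1.09 and 0.92.

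Which other genes had the profile of Mef2c was asked with a distance. Each gene's 6 log2 values were centred on their own mean, and genes were ordered by the root mean square difference from Mef2c (1424852_at). The 5 nearest were Dio2, the deiodinase that activates thyroid hormone (distance 0.107), Esr1, the oestrogen receptor alpha (0.115), Rspo2, a secreted amplifier of Wnt signalling (0.134), the neuronal adhesion molecule Cntn5 (0.136) and Prdm8, a PR-domain transcriptional repressor of cortical neurons (0.162). The median distance over all genes was 1.09. A gene that reads alike on all arrays lies about that far from Mef2c. The median thus follows from the Mef2c difference and does not measure how unusual the 5 are. Each gene was read on its brightest probe set.

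Dio2 read 7.15, 7.50 and 7.37 in wildtype and 5.23, 5.10 and 5.24 in D6/Zbtb20S tissue, a 4.43-fold lower signal. Esr1 read 4.46, 4.50 and 4.60 against 2.56, 2.53 and 2.55, and its D6/Zbtb20S values lay under the array medians. The differences of Rspo2, Cntn5 and Prdm8 were -2.00, -2.31 and -2.02. In these 5 genes, as in Mef2c, no wildtype array overlapped a D6/Zbtb20S array. They were chosen for this likeness, so their differences carry no test.

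**Figure D3:**
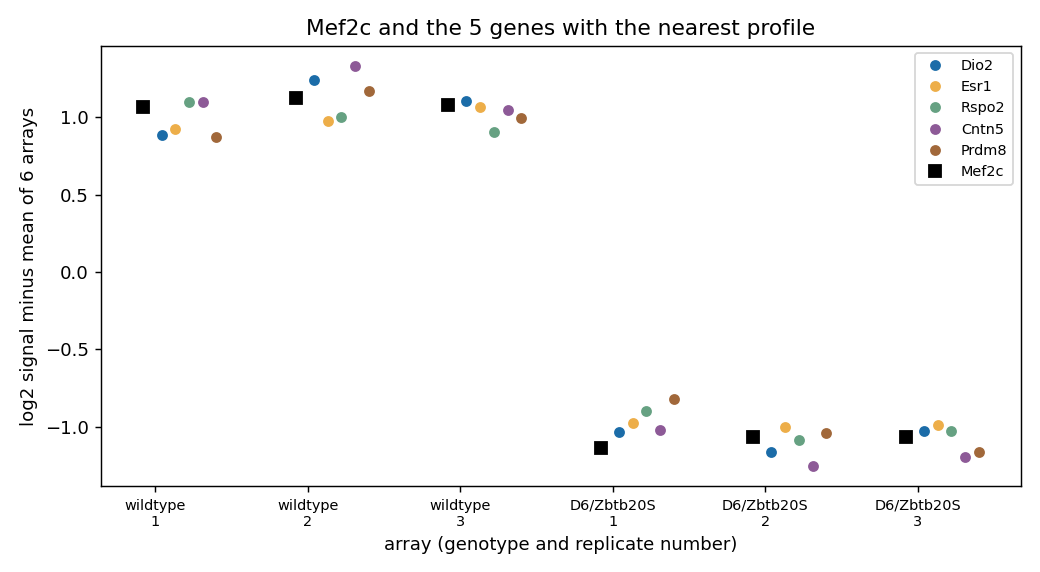
Log2 signal minus the gene's mean over 6 arrays (vertical axis) for Mef2c (black squares) and the 5 genes with the nearest profile (coloured circles) on each array (horizontal axis, points of an array offset for visibility). All 6 genes lie near 1 on wildtype arrays and near -1 on D6/Zbtb20S arrays.

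The genes around the MEF2 factors were then counted from a limma fit over all 18193 genes, with a Benjamini-Hochberg adjusted p under 0.05 as the threshold and each gene read on its brightest probe set. At that threshold 7.71% of all genes differed, 4.06% higher and 3.64% lower in D6/Zbtb20S tissue. Of 61 measured genes in 5 lists of regulators, partners and targets, 4 rose and 9 fell (21.3%). Read on the mean of each gene's probe sets, 8 were higher and 9 lower, so the excess of lower genes depended on reading the brightest probe set. The lists were written with earlier results of these data known and nothing particular to them is read from the share. The median difference of all genes was -0.02, and ± after a difference is its standard error from the fit.

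None of the 7 measured repressors of MEF2 passed the threshold, with a list median of 0.04. They include the class IIa histone deacetylase genes Hdac4, Hdac5, Hdac7 and Hdac9. The smallest p-values were those of Hdac5 (difference 0.12 ± 0.09, limma adjusted p = 0.513) and of Cabin1, a calcineurin-binding repressor of MEF2 (0.08 ± 0.09, adjusted p = 0.685). No other probe set of these 7 genes passed either.

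Among 11 coactivators and DNA-binding partners 1 fell and 0 rose, with a median of -0.06. The gene that fell was the forkhead factor Foxo1, from 6.55 ± 0.04 to 5.58 ± 0.13 (SD, n = 3 each; difference -0.97 ± 0.09, limma adjusted p = 0.000133). Averaged over its 4 probe sets Foxo1 was at -0.58 and still passed. Of the others, singled out after their values were seen, Ep300, an acetyltransferase coactivator, was at 0.08 ± 0.11 and Srf, the other MADS-box factor of the list, at -0.17 ± 0.08, neither past the threshold. Crebbp, the close relative of Ep300, was at -0.06 ± 0.07 on its brightest probe set, but 2 of its other 3 probe sets passed as higher. On the mean of probe sets Crebbp (0.43), Ncoa2 (0.26) and Smarca4 (0.54) passed as higher (limma adjusted p = 0.0203, 0.0419 and 0.0366).

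Calcium and kinase signals went both ways, with 4 of 18 genes higher, 2 lower and a median of 0.08. Camk4, the nuclear calmodulin-dependent kinase, read 8.73 ± 0.22 in wildtype and 7.06 ± 0.23 in D6/Zbtb20S tissue (SD, n = 3 each) and was 3.17-fold lower (-1.66 ± 0.14, limma adjusted p = 8.6e-05). The other 4 probe sets of Camk4 did not pass. Averaged over all 5 the difference was -0.51 and still passed (limma adjusted p = 0.0083). Ppp3ca, a catalytic subunit gene of calcineurin, rose by 0.44 ± 0.08 (limma adjusted p = 0.0115), and its other 2 probe sets also passed as higher. The catalytic subunit genes Ppp3cb (0.15 ± 0.09, adjusted p = 0.384) and Ppp3cc (0.18 ± 0.13, adjusted p = 0.503) did not pass. Ppp3cc lay under the array median throughout. The regulatory subunit gene Ppp3r1 (-0.21 ± 0.10, adjusted p = 0.275) did not pass either.

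Camk1d (0.50 ± 0.10), Camk2a (0.65 ± 0.14) and Prkd1, a kinase that exports class IIa deacetylases from the nucleus (0.38 ± 0.09), were also higher, and the p38 kinase gene Mapk11 (-0.39 ± 0.10) was lower. These 4 calls were fragile in limma fits that left out 1 array. Camk1d did not pass when wildtype replicate 2 or D6/Zbtb20S replicate 1 was dropped, with adjusted p reaching 0.0694. Camk2a passed only when wildtype replicate 3 or D6/Zbtb20S replicate 2 was dropped, with adjusted p otherwise reaching 0.0968. Prkd1 kept its call only without wildtype replicate 3 (up to 0.145 otherwise), and Mapk11 only without D6/Zbtb20S replicate 3 (up to 0.162). Mapk11 also missed the threshold with the replicate number as a block (adjusted p = 0.0529). None of the 5 other Camk2a probe sets passed, and the means of the probe sets of Camk2a and of Mapk11 did not either (adjusted p = 0.212 and 0.335). On that mean Cdk5r1, the gene of the p35 activator of Cdk5, passed as higher (0.61), and Sik1 (-0.38) and Cacna1c (-0.35) passed as lower.

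Of 15 measured genes described as MEF2 targets in neurons, 5 fell, 0 rose and 10 did not pass, with a list median of -0.05. Over all genes 3.64% fell and 4.06% rose. The list was written with earlier results of these data known, and nothing particular to it is read from its count. Kcna1, a voltage-gated potassium channel gene, went from 5.36 ± 0.14 to 4.67 ± 0.14 (SD, n = 3 each; difference -0.69 ± 0.10, limma adjusted p = 0.003). The protocadherin gene Pcdh10, which takes part in MEF2-driven synapse elimination, went from 6.71 ± 0.24 to 6.06 ± 0.05 (-0.66 ± 0.12, adjusted p = 0.0077). Lgi1, the gene of a secreted synaptic protein linked to epilepsy, was at -0.60 ± 0.10 and Dipk2a at -0.64 ± 0.13. The orphan nuclear receptor gene Nr4a1, an activity-induced MEF2 target, was at -0.50 ± 0.08 (adjusted p = 0.0039).

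Support from further probe sets differed between these genes. One other probe set passed as lower for each of Kcna1 (of 3), Lgi1 (of 1) and Dipk2a (of 2), none of 5 for Pcdh10, and Nr4a1 had no other. The mean of the Pcdh10 probe sets was at -0.32 and did not pass (limma adjusted p = 0.0939). Dipk2a did not pass when D6/Zbtb20S replicate 2 or 3 was dropped, with adjusted p reaching 0.0559.

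Of the targets that did not pass, 4 were singled out after their values were seen: Homer1, a postsynaptic scaffold gene, was at 0.26 ± 0.10 (limma adjusted p = 0.164) and Ube3a, a ubiquitin ligase gene, at 0.43 ± 0.16. Of the other 5 Homer1 probe sets 1 passed as higher, and so did their mean with the brightest (0.28, adjusted p = 0.048). On the mean of probe sets the list thus held 1 higher and 4 lower genes. Bdnf, the neurotrophin gene, was at 0.08 ± 0.08. Arc, an activity-induced synaptic gene, lay under the array median on all 6 arrays, at 2.81 ± 0.03 and 2.88 ± 0.05 (SD, n = 3 each). These 4 differences were above 0. Egr1 (-0.46 ± 0.17, limma adjusted p = 0.158) and Klf6 (-0.37 ± 0.11, adjusted p = 0.072) lay below 0 and did not pass either. Over the 15 measured targets 7 differences were above 0 and 8 below.

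Jun and Klf2 were the members of the target list whose promoter windows held the MEF2 consensus, out of 12 target genes in the RefSeq table. The stretches around those matches are shown with the match in capitals.
Jun (chr4:95052223-95052285, minus strand): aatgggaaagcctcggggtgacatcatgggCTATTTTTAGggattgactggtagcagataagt
Klf2 (chr8:72318914-72318983, plus strand): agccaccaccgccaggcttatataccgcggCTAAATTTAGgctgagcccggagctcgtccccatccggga
The Jun match begins 33 bases before the start and the Klf2 match 118 bases before it. Jun was at 0.25 ± 0.09 (limma adjusted p = 0.131) and Klf2 at 0.004 ± 0.08 (adjusted p = 0.987), so neither passed. None of the 5 target genes that fell had a match among those of them in the table. No match in such a window says nothing of sites further away.

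MEF2 targets of muscle served as a further list. Only 1 of the 10 lay above the array median on all 6 arrays, and their summed linear signal was 90.3 to 92.1 on wildtype and 84.3 to 88.7 on D6/Zbtb20S arrays. Myh3, an embryonic myosin heavy chain gene, fell from 2.52 ± 0.10 to 1.91 ± 0.17 (SD, n = 3 each; limma adjusted p = 0.0055), both under the array median. The list had 0 higher genes and a median of -0.06.

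**Figure D4:**
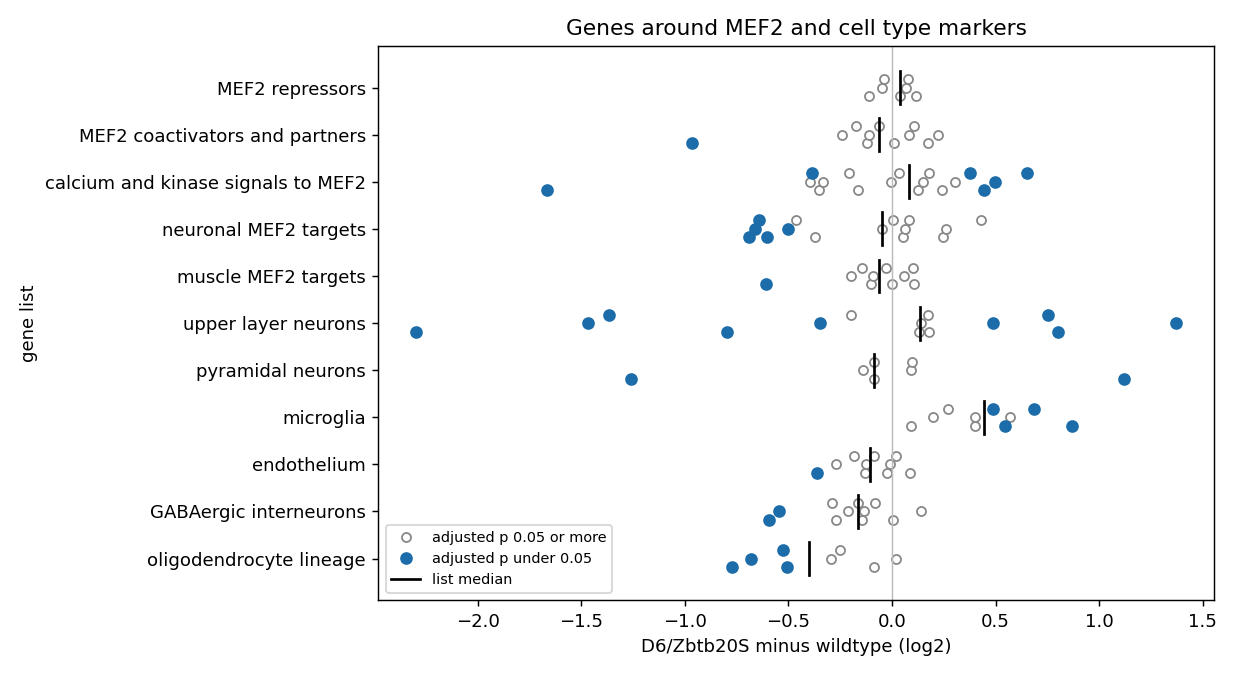
Difference in log2 signal, D6/Zbtb20S minus wildtype (horizontal axis), of each measured gene (1 point) in 5 lists around MEF2 and 6 lists of cell type markers (vertical axis); filled points had a limma adjusted p under 0.05 and black bars are list medians. The 5 filled neuronal targets all lie between -0.69 and -0.50, and the 7 repressors lie within 0.12 of 0.

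Markers of cells that could carry Mef2 RNA moved with the genotype as follows. Over 6 lists of 60 measured marker genes, 9 rose and 13 fell (36.7%), against 7.71% of all genes (4.06% higher and 3.64% lower). These lists too were written with earlier results of these data known. Nothing particular to them is read from that share or from the counts by list. Upper-layer neurons, a layer type that Mef2c is known to mark, had 4 of 14 genes higher and 5 lower, with a median of 0.13. Dok5 (-2.29 ± 0.15, under the array median in D6/Zbtb20S tissue), Unc5d (-1.47 ± 0.15), Rasgrf2 (-1.37 ± 0.08), Cux2 (-0.80 ± 0.13) and Cux1 (-0.35 ± 0.08) fell, while Tle1 (1.37 ± 0.16), Tle3 (0.80 ± 0.07), Inhba (0.75 ± 0.12) and Lhx2 (0.49 ± 0.09) rose. The summed linear signal of this list was 1814 to 1951 in wildtype and 1949 to 2089 in D6/Zbtb20S tissue. Such sums, here and for the lists below, weigh the brightest genes most and do not count cells. The brightest gene of this list, Pou3f3 (log2 means of 9.41 and 9.58), did not pass. Neither Cux1 nor Lhx2 passed when wildtype replicate 2 or D6/Zbtb20S replicate 2 was dropped. The same was true of Cux1 when D6/Zbtb20S replicate 3 was dropped, or with the replicate number as a block (limma adjusted p = 0.057), and of Lhx2 when D6/Zbtb20S replicate 1 was dropped. The adjusted p reached 0.12 for Cux1 and 0.0518 for Lhx2. On the mean of its 9 probe sets Cux1 was at -0.23 and did not pass (adjusted p = 0.144), and none of its other 8 passed. The same mean gave -0.56 for Rasgrf2, -0.37 for Cux2, 0.46 for Tle3 and 0.39 for Inhba, all still past the threshold, with no other probe set passing for Rasgrf2 (of 2), Cux2 (of 2) or Inhba (of 1). Rorb was at -0.20 ± 0.13 on its brightest probe set. It passed as lower on the mean (-0.42, limma adjusted p = 0.0369), as did 1 of its other 2 probe sets.

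Microglia and endothelial cells are also known to express Mef2 genes. All 10 measured microglial genes had differences above 0 (median 0.45), and 4 passed as higher, among them Cx3cr1, the fractalkine receptor gene (0.87 ± 0.16), Tyrobp, an immune signalling adaptor gene (0.69 ± 0.11), the protease gene Ctss (0.49 ± 0.09) and Fcrls (0.55 ± 0.13). Averaged over both of its probe sets Cx3cr1 was at 0.43 and still passed. In both lists 8 of 10 genes lay above the array median on all 6 arrays. The summed linear signal of the microglial genes was 589 to 632 in wildtype and 769 to 896 in D6/Zbtb20S tissue. Fcrls passed only when wildtype replicate 3 or D6/Zbtb20S replicate 2 was dropped (limma adjusted p otherwise reached 0.125). Of 10 endothelial genes 1 fell, the glucose transporter gene Slc2a1 (-0.36 ± 0.08), which kept its call only without wildtype replicate 1 among fits with 1 array left out (limma adjusted p otherwise reached 0.121). The summed signal of the endothelial genes was 570 to 613 in wildtype and 488 to 595 in D6/Zbtb20S tissue.

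General markers of pyramidal neurons had 1 of 7 genes higher, the neuronal bHLH factor Neurod2 (1.12 ± 0.11), and 1 lower, the vesicular glutamate transporter gene Slc17a6 (-1.26 ± 0.17). The mean of the Slc17a6 probe sets was at -0.57 and did not pass (limma adjusted p = 0.17), and that of Neurod2 was at 0.55 and did. Bcl11a passed as higher on that mean (0.29, limma adjusted p = 0.0431), as did 2 of its other 6 probe sets. The list then held 2 higher and 0 lower genes. Of the 7 pyramidal genes 6 lay above the array median on all 6 arrays, with a summed signal of 3432 to 3688 in wildtype and 3605 to 3967 in D6/Zbtb20S tissue. Of 11 GABAergic genes 2 fell, Gad1 (-0.60 ± 0.10) and Nxph1 (-0.55 ± 0.13), and the summed signal was 1055 to 1105 and 855 to 913. Nxph1 likewise passed only when wildtype replicate 3 or D6/Zbtb20S replicate 2 was dropped (adjusted p otherwise reached 0.135). Of 8 oligodendrocyte genes 4 fell, namely Olig2 (-0.77 ± 0.11), Olig1 (-0.68 ± 0.08), Cnp (-0.53 ± 0.10) and Mbp (-0.51 ± 0.08), with sums of 991 to 1174 and 713 to 793. On the mean of probe sets Cnp was at -0.34 and Mbp at -0.33, both still past the threshold. The part of these cell types in the Mef2c and Mef2a differences was not tested.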

How the data were processed

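The deposited table holds 1 log2 value per probe set of an Affymetrix 3' expression array, and RMA and limma are named in the submitters' processing notes without version or order. The log2 scale was taken from the range of the values. Medians of the 6 arrays ran from 3.83 to 3.97, and which scaling the authors applied last is unknown. RMA compresses differences near the floor, and the number of arrays limits precision.

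From 45101 probe sets 64 controls were left out. Gene names came from the platform annotation, and of 34945 probe sets with 1 symbol 34741 matched a GRCm38.p6 gene. A gene was read on the probe set with the highest mean. Groups came from the titles. The fit ran in R 4.3.3 with limma 3.58.1 (lmFit, eBayes, genotype as the only term, Benjamini-Hochberg over all 18193 genes, threshold 0.05), and was tested on simulated data. There it recovered 41% of shifts of 0.5 on the log2 scale and 85% of shifts of 1. A gene that did not pass may therefore still differ. Figures used matplotlib 3.10.9 in Python 3.11.15.

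The family, the gene lists and the naming rule were chosen with earlier results of these data known. Named genes were all Mef2 probe sets, Zbtb20, each list's passing members (or the 2 of smallest p) and the 5 nearest profiles. The 4 class IIa deacetylases, Ep300, Srf, Crebbp, 4 targets that did not pass, Egr1, Klf6 and the 2 with a promoter match were added after their values were seen. The calcineurin genes Ppp3cb, Ppp3cc and Ppp3r1 were added in the same way. So were Pou3f3 and the genes that passed on the mean but not on the brightest probe set, 5 around MEF2 and the markers Rorb and Bcl11a. Of 129 listed genes 8 are not analysed here. Alternatives were the replicate block, leaving out each array, equal medians, quantile normalization, a filter that kept probe sets brighter than their array's median on at least 3 arrays, the mean of probe sets, an intensity trend, an ordinary linear model and array weights. Promoter sequences came from RefSeq.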

Additional observations from a re-analysis of the deposited data

How the results depend on the processing

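The 15 Mef2 differences stayed within 1 pooled SD of their values under equal medians and quantile normalization. With 3 arrays a group, leaving out 1 cannot move a difference by 1 pooled SD, so that measure says nothing there. The filter on dim probe sets leaves the values it keeps unchanged. With an array left out the Mef2a difference on 1452347_at ran from 0.70 to 1.17. The small Mef2a differences on 1425426_a_at (-0.10 to 0.01) and 1442623_at (-0.005 to 0.19) changed sign. The Mef2c difference was -2.19 to -2.16 with an array left out and -2.01 when its 5 probe sets were averaged, which moves it by more than its small SD. Leaving out an array gave 6 to 7 Mef2 probe sets lower and 5 to 6 higher without overlap, and equal medians or quantile normalization gave 7 lower and 3 higher. The count of all genes past the threshold was 1402, and 777 to 1539 with an array left out (777 without wildtype replicate 2, 836 without D6/Zbtb20S replicate 1), 267 with the ordinary linear model and 2707 under array weights. Of the 13 MEF2 pathway genes, 9 to 13 were counted with an array left out, 2 with the ordinary linear model (Foxo1 and Nr4a1) and 22 with array weights. On the mean of probe sets 17 passed, 8 higher and 9 lower, against 4 and 9. The 22 cell type marker genes became 17 to 23 with an array left out and 5 with the ordinary linear model. Fewer degrees of freedom per gene enter the ordinary model, and the cause of the rise with array weights was not tested. No named call changed direction. Same-numbered arrays did not deviate together (r of -0.22, 0.18 and -0.01 for numbers 1, 2 and 3), so the numbers were not taken as pairs. With the replicate number as a block 1343 genes passed, and 12 of the 13 pathway and 21 of the 22 marker calls held. Signals under the array median, as for Mef2b and Arc, limit what can be measured.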
